A study of Bos taurus with 34 samples.

Results

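The nuclear genome of cattle encodes most subunits of the respiratory complexes II to V, and 45 of the 14161 genes in the authors' deposited comparison of SLICK with FREE liver belong to them. They were taken by gene symbol (SDHA to SDHD, CYC1, and every symbol that begins with UQCR, with COX followed by a digit from 4 to 8, or with ATP5), with no measured value involved. Complex II gave 4 genes, complex III 9, complex IV 14 and complex V, the ATP synthase, 18. The study sequenced liver RNA of cattle that differ in their copies of SLICK1, a mutation of the prolactin receptor gene, PRLR. In the TruSeq experiment SLICK daughters had 1 copy of the allele (10 samples, 5 sired by Blanco and 5 by Lone Ranger), and FREE daughters had 0 copies (8 samples, 1 sired by Blanco and 7 by Lone Ranger). All samples are labelled as Senepol cattle, and no age or treatment is given in the labels. In the SMARTer experiment animals had 2 copies (S2, 11 samples) or 1 copy (S1, 5 samples).

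Library columns in the tables are headed by numbers of animals, which none of the sample labels gives. No library could be tied to a group, so values per animal, depth per library and S2 against S1 are not analysed here. Every result below rests on the authors' deposited table, whose log2 fold changes are given below as log2 ratios of SLICK over FREE. A positive log2 ratio is read, from the name of the table, as higher in SLICK. The animals named by the comparison differ in part from those of the TruSeq counts. Its exact group sizes and split by sire are therefore not known here. Among the labelled samples the 2 bulls are unevenly spread over the genotypes. The terms of the authors' model are not stated, so whether the log2 ratios are adjusted for sire is not known. The part of sire in them was not tested. Errors are standard errors implied by the authors' log2 ratio and F value of each gene.

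The respiratory chain passes electrons from nutrients to oxygen across the inner mitochondrial membrane. Complex II, succinate dehydrogenase, joins it to the citric acid cycle. Complex III hands electrons from ubiquinol to cytochrome c, and complex IV hands them from cytochrome c to oxygen. Complexes III and IV pump protons, and complex V uses the proton gradient to make ATP. Hepatocytes are rich in mitochondria, and the chain there draws electrons from fatty acid oxidation and supplies ATP for gluconeogenesis and urea synthesis. Complex II is encoded wholly in the nucleus, whereas complexes III, IV and V also hold subunits encoded by mitochondrial DNA.

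The subunits were abundant transcripts. Of the 45 genes, 41 averaged at least 5 log2 CPM over the libraries by the authors' deposited table, a level reached by 26.8% of all genes. Log2 CPM, the log of counts scaled to library size, also rises with transcript length, so levels of different genes were compared per kilobase of exon. On that scale the median level was 6.79 log2 CPM per kilobase for complex II, 6.19 for complex III, 5.89 for complex IV and 6.80 for complex V, against 2.21 for all genes, as derived from the authors' deposited table. The value of complex IV includes 4 isoforms of other tissues. Its 9 liver or ubiquitous forms had a median of 6.59 on the same scale, above that of complex III. The highest level per kilobase derived from the authors' deposited table was 8.03, for ATP5MG, the small subunit g of the ATP synthase membrane part. Next came ATP5F1B, the catalytic beta subunit, with a level of 7.74 log2 CPM per kilobase from the authors' deposited table. In complex II the flavoprotein SDHA had a level of 7.50 log2 CPM per kilobase, and SDHB, SDHC and SDHD ran from 6.51 to 6.79, from the authors' deposited table. Between single genes these levels carry no replicate error here, so neighbours in the order were not tested against each other.

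**Figure D1:**
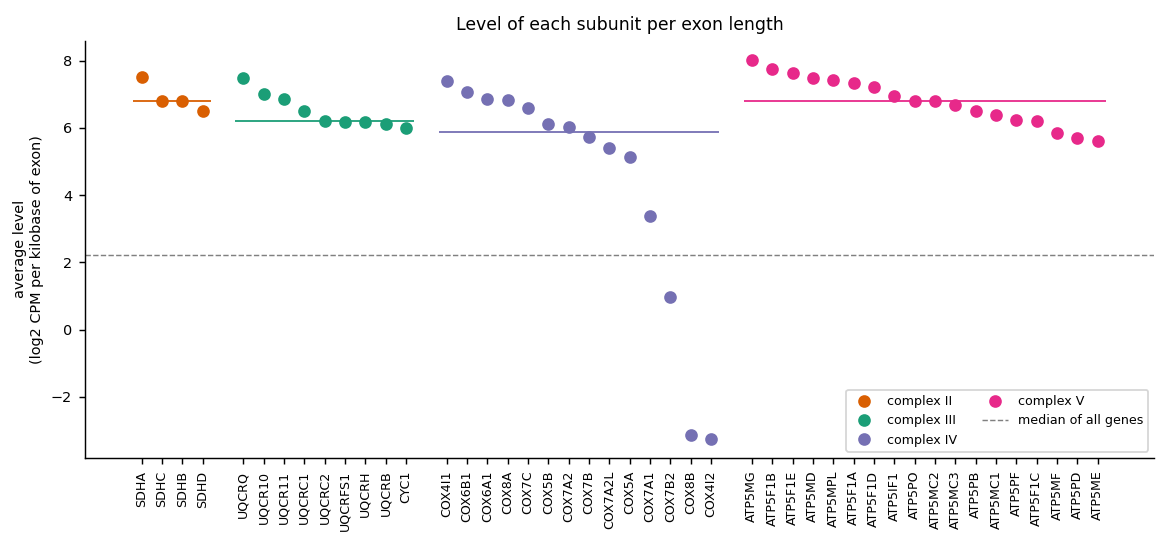
Average level of each of the 45 genes over the libraries of the comparison (vertical axis, log2 CPM per kilobase of exon), grouped by complex and ordered by level, with the complex medians as solid lines and the median of all genes (2.21) dashed. COX7A1 (3.37), COX7B2 (0.97), COX8B (-3.14) and COX4I2 (-3.26) lie apart from the other 41 genes, which range from 5.14 to 8.03.

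Complex IV had the widest spread of levels, and it includes isoforms that other tissues use. The forms found in liver and most other tissues, COX4I1, COX5A, COX5B, COX6A1, COX6B1, COX7A2, COX7B, COX7C and COX8A, had levels from 5.14 to 7.40 log2 CPM per kilobase from the authors' deposited table. COX4I2, the lung form of subunit 4, and COX8B, the heart and muscle form of subunit 8, averaged -3.04 and -2.65 log2 CPM by the authors' deposited table. COX7B2, known from testis in humans, averaged -1.10 log2 CPM by the authors' deposited table, and COX7A1, the heart and muscle form of subunit 7a, averaged 2.44. COX6A2 and COX6B2, isoforms of muscle and testis, are named in the count tables without being in the comparison, and COX6C is not analysed here.

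In the comparison of SLICK with FREE liver, no gene of complexes II to V passed the authors' adjusted p of 0.05, while 43 of the 45 had a positive log2 ratio. The median log2 ratio of the 45 was 0.15 by the authors' deposited table, a ratio of 1.11, against -0.01 over all 14161 genes. Over all genes 48.2% of log2 ratios were above 0 and 0.501% of genes passed the adjusted p by the authors' deposited table. At an unadjusted p under 0.05, 19 of the 45 were higher and 1 was lower in SLICK by the authors' deposited table, against 7.22% and 8.79% of all genes. Abundant genes were more often positive in general. Among the 3793 genes at 5 log2 CPM or more, 62.8% were above 0 and 15.8% were higher at an unadjusted p under 0.05 by the authors' deposited table. The 41 subunits at that level counted 40 above 0 and 19 higher at an unadjusted p under 0.05 by the authors' deposited table.

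The differences were small next to what the comparison could call. The implied standard errors of the 41 abundant subunits lay between 0.055 and 0.130 log2 units, with a median of 0.074. The least significant of the 71 called genes by the authors' deposited table had a p of 2.27e-04. To reach it, a subunit with the median of these errors needed a log2 ratio of 0.34, and the requirement ran from 0.25 to 0.59 over the 41. The smallest adjusted p among the 45 by the authors' deposited table was 0.0876, for COX7A1. At an adjusted p under 0.10 it and ATP5MC1 were the 2 members called by the authors' deposited table, against 2.77% of all genes.

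**Figure D2:**
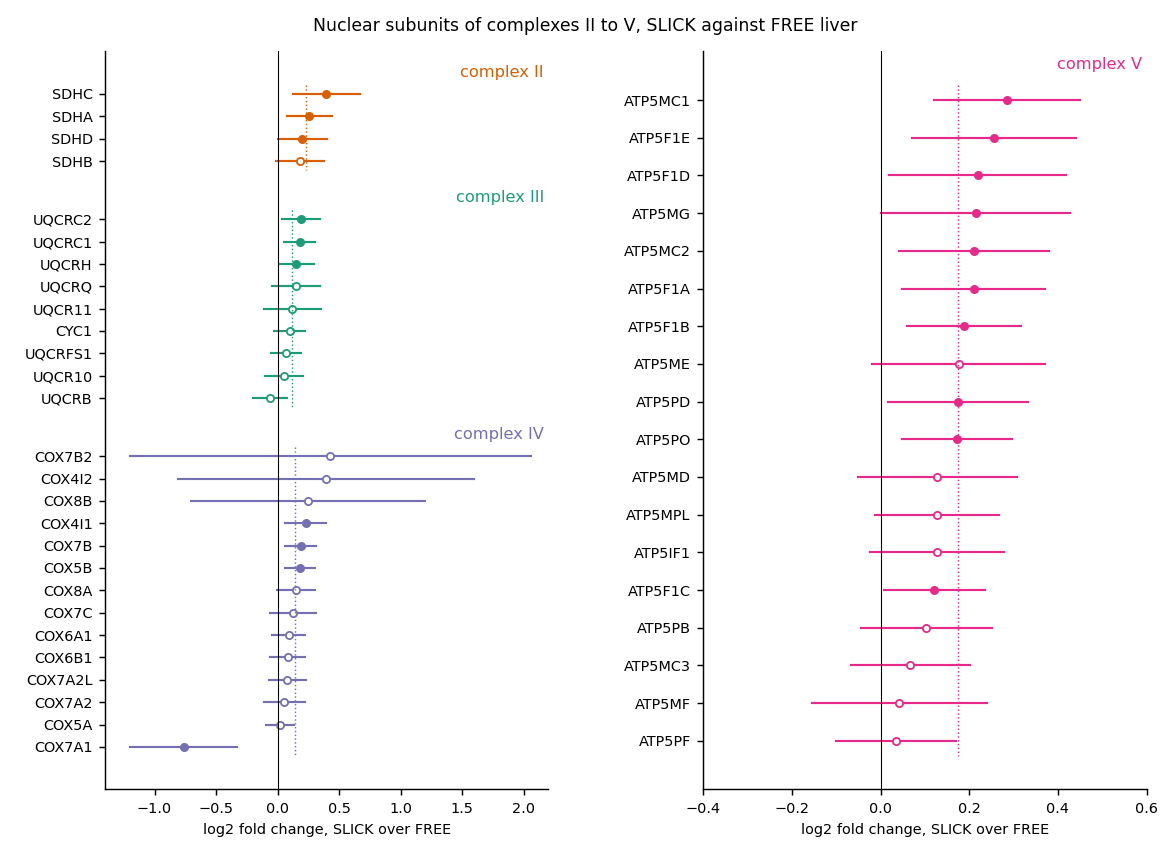
Log2 ratio of each of the 45 genes, SLICK over FREE (horizontal axis, with a narrower range in the right panel), with its approximate 95% interval from the implied standard error. Filled points have an unadjusted p under 0.05, dotted lines are complex medians, and all genes but COX7A1 and UQCRB lie to the right of 0.

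All 4 subunits of succinate dehydrogenase had positive log2 ratios. SDHC, a membrane anchor that binds haem and ubiquinone, had the largest by the authors' deposited table at 0.40 ± 0.13 (implied SE), a ratio of 1.31 (p = 0.00674, adjusted p = 0.137). Its gene lies on chromosome 3 of ARS-UCD1.2 from 8177617 to 8208058 (ENSBTAG00000015853). SDHD, the other anchor, had a log2 ratio of 0.20 ± 0.09 by the authors' deposited table (p = 0.0463, adjusted p = 0.313). In the catalytic head, SDHA, the flavoprotein that oxidises succinate, had a log2 ratio of 0.26 ± 0.09 by the authors' deposited table (p = 0.00872, adjusted p = 0.154). SDHB, the iron-sulfur subunit that links SDHA to the anchors, had a log2 ratio of 0.18 ± 0.09 by the authors' deposited table (p = 0.0625, adjusted p = 0.356). Complex II thus counted 3 of 4 subunits at an unadjusted p under 0.05, and its anchors and head overlapped in their intervals.

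In complex III the core proteins had larger log2 ratios than the redox subunits. UQCRC1 and UQCRC2, the core proteins that face the matrix, had log2 ratios of 0.18 ± 0.06 and 0.19 ± 0.07 by the authors' deposited table, with adjusted p of 0.154 and 0.218. CYC1, the haem protein cytochrome c1, and UQCRFS1, the Rieske iron-sulfur protein, carry the electrons. Their log2 ratios by the authors' deposited table were 0.10 ± 0.06 and 0.07 ± 0.06, with unadjusted p of 0.128 and 0.238. The approximate 95% interval was 0.05 to 0.31 for UQCRC1 and -0.05 to 0.19 for UQCRFS1 from the authors' deposited table, so the 2 overlapped. The genes of 1 complex share their libraries, and the difference between them could not be tested without values per animal.

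The 5 small subunits of complex III surround the core and stabilise it. UQCRH, the hinge protein at cytochrome c1, had a log2 ratio of 0.15 ± 0.07 by the authors' deposited table (p = 0.0406, adjusted p = 0.294). UQCRQ, UQCR11 and UQCR10 had log2 ratios of 0.15, 0.12 and 0.05 by the authors' deposited table, with unadjusted p from 0.134 to 0.495. UQCRB, which lies at the ubiquinone site, was the 1 member of complexes II, III and V below 0, with a log2 ratio of -0.06 ± 0.07 by the authors' deposited table (p = 0.352). Its interval of -0.20 to 0.07 covers 0 and stops below the value of every other complex III gene but UQCRFS1 and UQCR10. It overlapped the intervals of UQCRC1 (0.05 to 0.31) and UQCRC2 (0.03 to 0.34), and no difference between these genes was tested.

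Among the liver and ubiquitous subunits of complex IV, 9 of 9 had positive log2 ratios and 3 had an unadjusted p under 0.05 by the authors' deposited table. COX4I1, the regulatory subunit that binds ATP, had a log2 ratio of 0.23 ± 0.08 by the authors' deposited table (p = 0.0101, adjusted p = 0.164). COX5B, a zinc-binding subunit on the matrix side, had 0.18 ± 0.06 as log2 ratio by the authors' deposited table (p = 0.00494, adjusted p = 0.119). COX7B, a small membrane subunit, had a log2 ratio of 0.19 ± 0.06 by the authors' deposited table (p = 0.00707, adjusted p = 0.139). The other 6 did not reach an unadjusted p of 0.05. Their log2 ratios by the authors' deposited table ran from 0.02 for COX5A to 0.15 for COX8A. COX5A binds to COX4I1 in the assembled enzyme. The approximate intervals of COX5A (-0.10 to 0.13) and COX4I1 (0.06 to 0.39) overlapped, and the difference between the 2 was not tested. COX7A2L, a factor that joins complexes III and IV into supercomplexes, had a log2 ratio of 0.08 ± 0.07 by the authors' deposited table (p = 0.280).

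COX7A1 had the lowest log2 ratio of the 45 genes. This heart and muscle form of subunit 7a had a log2 ratio of -0.76 ± 0.21 by the authors' deposited table, a ratio of 0.589 with an approximate 95% interval of 0.436 to 0.794. Its unadjusted p was 0.00154 and its adjusted p 0.0876 by the authors' deposited table, so it did not pass the threshold. COX7A2, the liver form of the same subunit, had a log2 ratio of 0.05 ± 0.08 by the authors' deposited table (p = 0.501). The approximate intervals of the 2 paralogs, -1.20 to -0.33 and -0.11 to 0.22, did not overlap. Per kilobase of exon, the level of COX7A1 was 3.37 and that of COX7A2 was 6.03 log2 CPM from the authors' deposited table. COX7A1 is encoded on chromosome 18 from 46806391 to 46808127 (ENSBTAG00000014878).

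Markers of other cells were examined beside COX7A1. Endothelial, macrophage, lymphocyte and erythroid markers had positive median log2 ratios of 0.06, 0.12, 0.08 and 0.25 by the authors' deposited table. Single markers among them were negative, as given further below. Over all genes 8.79% were lower at an unadjusted p under 0.05, the background of the counts in this paragraph. Of 8 skeletal muscle markers, COX6A2 among them, only TNNT3 was in the comparison, at -3.46 log2 CPM by the authors' deposited table. All 4 stellate cell markers had negative log2 ratios by the authors' deposited table, with a median of -0.34, 2 of them at an unadjusted p under 0.05. All 6 bile duct markers were negative by the authors' deposited table, with a median log2 ratio of -0.91 and 5 at an unadjusted p under 0.05. Their average levels summed to 182 CPM for the stellate list and 46.3 CPM for the bile duct list by the authors' deposited table. Their part in the value of COX7A1 was not tested. In whole liver RNA, fewer cells of a type and less RNA per cell cannot be told apart.

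The 3 other tissue isoforms of complex IV were too scarce for a narrow estimate. COX4I2, COX7B2 and COX8B had log2 ratios of 0.39, 0.43 and 0.25 by the authors' deposited table, with implied standard errors of 0.57, 0.78 and 0.45. Their approximate intervals reached from ratios of 0.57, 0.435 and 0.614 to ratios of 3.03, 4.16 and 2.29, and unadjusted p ran from 0.503 to 0.594 by the authors' deposited table.

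All 18 genes of complex V had positive log2 ratios, and 10 of them an unadjusted p under 0.05, by the authors' deposited table. In the catalytic head, the nucleotide-binding alpha subunit ATP5F1A and the catalytic beta subunit ATP5F1B had log2 ratios of 0.21 ± 0.08 and 0.19 ± 0.06 by the authors' deposited table, with adjusted p of 0.186 and 0.136. The central stalk, which turns inside the head, is made of ATP5F1C, ATP5F1D and ATP5F1E. Their log2 ratios by the authors' deposited table were 0.12 ± 0.05, 0.22 ± 0.09 and 0.26 ± 0.09, each at an unadjusted p under 0.05. All 5 genes of head and central stalk reached that p.

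Subunit c, which forms the ring that protons turn, is made from 3 genes with different leader peptides and the same mature protein. ATP5MC1 (chromosome 19, 37618130 to 37621478) had the largest of complex V by the authors' deposited table at 0.29 ± 0.08 (p = 0.00189, adjusted p = 0.0923). ATP5MC2 had a log2 ratio of 0.21 ± 0.08 (p = 0.0175) and ATP5MC3 of 0.07 ± 0.06 (p = 0.310) by the authors' deposited table. The average levels of the 3 were close, between 6.71 and 6.81 log2 CPM or 6.37 and 6.80 log2 CPM per kilobase by the authors' deposited table. The intervals of ATP5MC1 (0.12 to 0.45) and ATP5MC3 (-0.07 to 0.20) overlapped, which is no test of a difference. Whether the paralogs differ was not tested.

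The peripheral stalk holds the head still against the rotor, and its 4 genes had log2 ratios from 0.03 to 0.17 by the authors' deposited table. ATP5PO, the OSCP subunit at the top of the stalk, had a log2 ratio of 0.17 ± 0.06 by the authors' deposited table (p = 0.00892, adjusted p = 0.156), and ATP5PD had 0.17 ± 0.08 (p = 0.0321). ATP5PB and ATP5PF (coupling factor 6) had log2 ratios of 0.10 ± 0.07 and 0.03 ± 0.06 by the authors' deposited table, with unadjusted p of 0.160 and 0.596. The approximate intervals of the 4 overlapped, and no difference between them was tested. ATP5PF had the smallest value of complex V. Of the 5 small membrane subunits, which help the enzyme to form dimers, ATP5MG had a log2 ratio of 0.21 ± 0.10 by the authors' deposited table (p = 0.0499). The other 4 (ATP5ME, ATP5MF, ATP5MD and ATP5MPL) had log2 ratios between 0.04 and 0.18 and unadjusted p from 0.0744 to 0.662 by the authors' deposited table. ATP5IF1, the inhibitor that stops the enzyme from consuming ATP when the gradient collapses, had a log2 ratio of 0.13 ± 0.07 by the authors' deposited table (p = 0.0950).

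Set side by side, the median log2 ratio was 0.23 for complex II, 0.12 for complex III, 0.14 for complex IV and 0.17 for complex V by the authors' deposited table. The shares of genes higher in SLICK at an unadjusted p under 0.05 were 3 of 4, 3 of 9, 3 of 14 and 10 of 18 by the authors' deposited table, or 75%, 33.3%, 21.4% and 55.6%. The same share was 7.22% of all genes and 15.8% of genes at 5 log2 CPM or more, a level that 10 of the 14 complex IV genes and all genes of the other complexes had. The median level was 7.18, 6.29, 6.01 and 6.73 log2 CPM for complexes II to V by the authors' deposited table, the highest for complex II. Per kilobase of exon, complex II (6.79) did not lie above complex V (6.80). The part of level in the order of the complexes was not tested. Complex II stood highest in log2 ratio, and its lowest gene, SDHB at 0.18, lay beside the highest of complex III, UQCRC2 at 0.19. With complex IV limited to its 10 genes at 5 log2 CPM or more, its median by the authors' deposited table was 0.11 and lay below that of complex III. Its share at an unadjusted p under 0.05 was then 3 of 10, or 30%. Among its 9 liver or ubiquitous forms the share was 3 of 9, or 33.3%, as in complex III, and the median was 0.13. The median implied error of a single gene was 0.093, 0.070, 0.076 and 0.076 in the 4 complexes, and the errors of the medians themselves are not known here. Genes within a complex are measured in the same animals, so the complexes could not be tested against each other without values per animal.

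**Figure D3:**
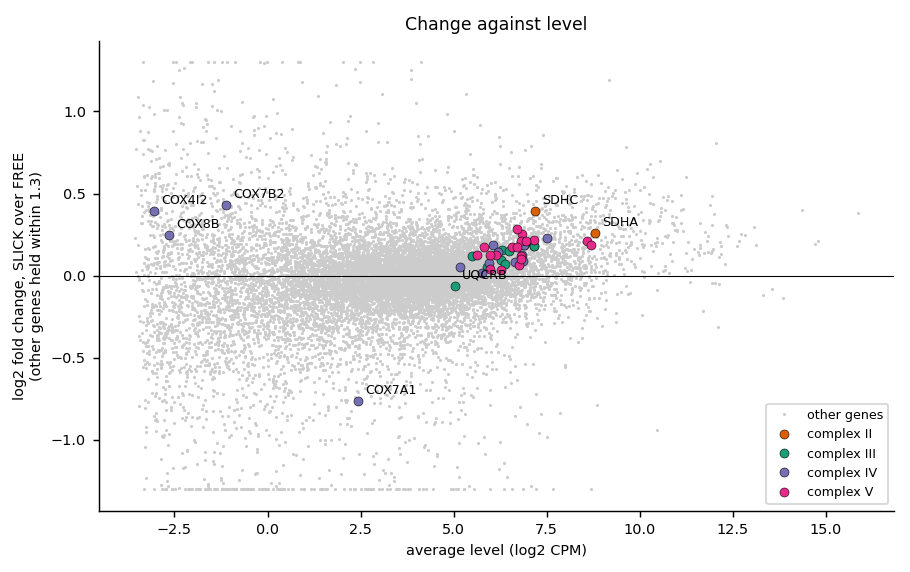
Log2 ratio, SLICK over FREE, against the average level of each gene in log2 CPM, for the 45 genes (coloured by complex) and all other genes (grey, values beyond 1.3 in either direction drawn at 1.3). The abundant subunits lie between -0.06 (UQCRB) and 0.40 (SDHC) and drift upward with level, while COX7A1 and the scarce isoforms lie to the left.

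Over the 41 abundant subunits, the log2 ratio was larger for the more abundant transcripts. Pearson's r between log2 ratio and average log2 CPM was 0.61 and Spearman's rho 0.71 across these 41 genes from the authors' deposited table. Across all 3793 genes at 5 log2 CPM or more the same values were 0.23 and 0.25. With level per kilobase in place of level, r was 0.40 and rho 0.41 over the 41 genes, and with log2 exon length they were 0.30 and 0.32. These genes share their libraries and are not independent, so the correlations describe these data and carry no test. The 5 subunits with the highest average by the authors' deposited table, SDHA, ATP5F1B, ATP5F1A, COX4I1 and SDHC, averaged from 7.19 to 8.81 log2 CPM and had log2 ratios from 0.19 to 0.40. UQCRB and COX7A2, the least abundant of the 41 at 5.03 and 5.16 log2 CPM by the authors' deposited table, had log2 ratios of -0.06 and 0.05.

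Genes that assemble the complexes had smaller medians, and complex I lay level with complex III. The median level was 3.70 log2 CPM for the assembly factors and 5.19 for complex I, against 6.57 for the 45 genes, by the authors' deposited table. The part of level in these differences was not tested. Complex I, the largest entry point of electrons, had a median log2 ratio of 0.12 over 37 structural subunits by the authors' deposited table, with 12 higher and 0 lower at an unadjusted p under 0.05. Over all genes 7.22% were higher and 8.79% lower at that p, which is also a background of the counts that follow. Of the 3793 genes at 5 log2 CPM or more, 601 (15.8%) were higher and 250 lower, the nearer background for abundant lists. That level was reached by 64.9% of the complex I genes and 19.5% of the assembly factors. In the lists further below it was reached by 85.7% of citric acid cycle genes, 83.3% of the carrier list and 100% of hepatocyte markers. Median log2 ratios of the assembly factors by the authors' deposited table were 0.09 for complex II (4 genes), 0.03 for complex III (6 genes), 0.07 for complex IV (25 genes) and 0.06 for complex V (6 genes). Of these 41 assembly factors 6 were higher and 0 lower at an unadjusted p under 0.05 by the authors' deposited table. The 6 are 14.6% of these factors, against 7.22% of all genes. FMC1, needed to assemble the F1 part of the ATP synthase, had a log2 ratio of 0.30 ± 0.08 and an adjusted p of 0.0876 by the authors' deposited table. SMIM4 of complex III assembly had 0.34 ± 0.11, and CMC1 and SMIM20 of complex IV assembly had 0.28 ± 0.09 and 0.24 ± 0.08, as log2 ratios by the authors' deposited table. Adjusted p of these 3 ran from 0.130 to 0.144 by the authors' deposited table.

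**Figure D4:**
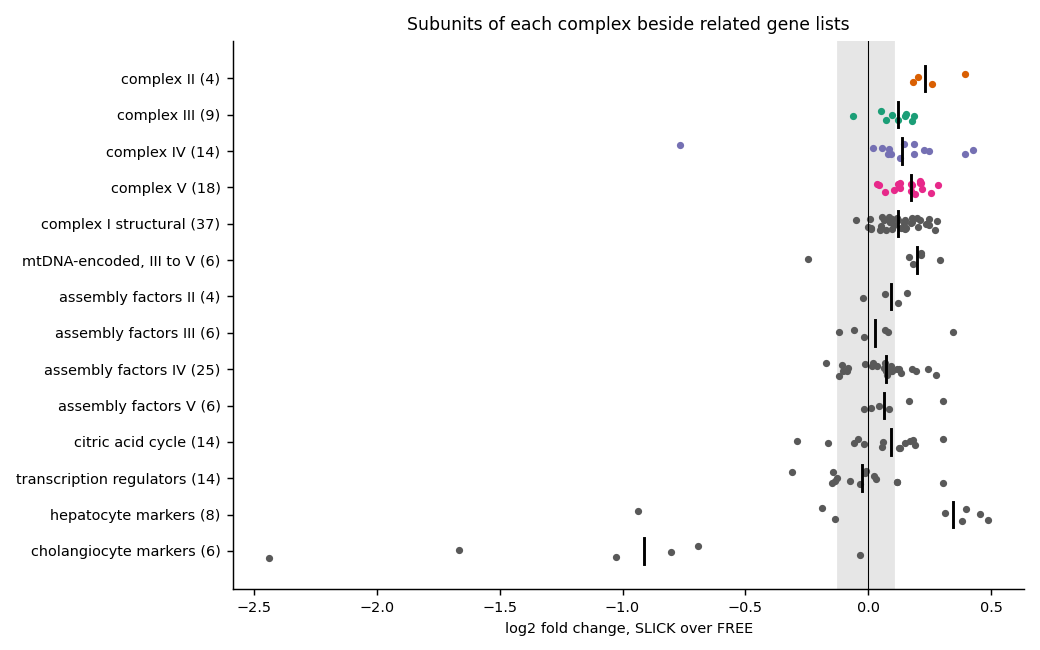
Log2 ratio, SLICK over FREE, of every gene in the 4 complexes and in 10 related lists (points, with the number of genes in brackets and the list median as a black bar), beside all genes (grey band between their quartiles, -0.12 to 0.10). The medians of complexes II to V lie right of the band, those of the assembly factors lie inside it, and the bile duct markers spread far to the left.

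The 6 subunits of complexes III to V that mitochondrial DNA encodes had a median log2 ratio of 0.20 by the authors' deposited table, and 0 of them had an unadjusted p under 0.05. CYTB of complex III had a log2 ratio of 0.29 ± 0.15 and COX1 of complex IV had 0.21 ± 0.12 by the authors' deposited table. ATP8 of complex V was the 1 below 0, with a log2 ratio of -0.25 ± 0.36. Citric acid cycle enzymes had a median of 0.09 over 14 genes by the authors' deposited table, with 3 higher and 1 lower at an unadjusted p under 0.05. The 1 lower was IDH3A, a subunit of isocitrate dehydrogenase, with a log2 ratio of -0.29 ± 0.10 by the authors' deposited table. IDH3G and IDH3B, subunits of the same enzyme, had log2 ratios of 0.18 ± 0.07 and 0.13 ± 0.07 by the authors' deposited table. IDH3G is among the 3 higher. IDH3G and IDH3B averaged 6.01 and 6.40 log2 CPM, against 3.15 for IDH3A. OGDH of the oxoglutarate dehydrogenase complex had a log2 ratio of 0.19 ± 0.07 by the authors' deposited table. Among 12 genes beside the complexes, mostly electron and metabolite carriers, the median was 0.05 by the authors' deposited table, with 4 higher and 1 lower at that p. NDUFA4, a complex IV subunit whose symbol the naming pattern does not take, was in this list. It is among the 4 higher, with a log2 ratio of 0.24 ± 0.10 by the authors' deposited table. ETFB, an electron carrier of fatty acid oxidation, had a log2 ratio of 0.34 ± 0.09 by the authors' deposited table. The ADP/ATP carriers SLC25A4, SLC25A5 and SLC25A6 had log2 ratios of 0.26 ± 0.10, -0.36 ± 0.11 and -0.13 ± 0.16 by the authors' deposited table. They averaged 7.27, 4.72 and 5.60 log2 CPM, so the lower SLC25A5 was the least abundant of them.

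Regulators of respiratory chain transcription had a median near 0. Their median log2 ratio was -0.02 over 14 genes by the authors' deposited table, with 1 higher and 1 lower at an unadjusted p under 0.05. PPARA, the nuclear receptor of fatty acid oxidation, had a log2 ratio of 0.30 ± 0.11 by the authors' deposited table (adjusted p = 0.196). TFB1M, a methyltransferase of mitochondrial ribosomal RNA, had -0.31 ± 0.13 as log2 ratio by the authors' deposited table (adjusted p = 0.264). None of the lists named here had a gene past the adjusted p of 0.05.

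Liver identity was clear from the hepatocyte markers, which averaged from 8.09 log2 CPM for APOA1 to 15.87 for ALB by the authors' deposited table. Hepatocyte markers had a positive median, as the subunits did. Of 8, 5 had a positive log2 ratio and 4 were higher at an unadjusted p under 0.05 by the authors' deposited table, with a median of 0.35. HP, APOA1 and FGB were negative, with log2 ratios of -0.94 ± 0.88, -0.19 ± 0.19 and -0.14 ± 0.12. The mean of the 8 was 0.10. Their average levels summed to 106997 CPM by the authors' deposited table, and the range per group was not analysed here. Endothelial, macrophage, lymphocyte and erythroid markers had medians of 0.06 (4 genes), 0.12 (5 genes), 0.08 (5 genes) and 0.25 (3 genes) as log2 ratios by the authors' deposited table. Single markers went the other way. CD68, a macrophage protein, had a log2 ratio of -0.28 ± 0.13 (p = 0.0391, adjusted p = 0.290) by the authors' deposited table. HBA, an alpha globin, had a log2 ratio of -1.17 ± 0.42 (p = 0.0119, adjusted p = 0.174) by the authors' deposited table, while HBB, the beta globin, had 0.65 ± 0.33 (p = 0.0636). The erythroid median is the value of AHSP, the chaperone of alpha globin, at 0.25 ± 0.28, and all 3 erythroid markers averaged under 0 log2 CPM by the authors' deposited table. The part of cell makeup in the differences of the subunits was not tested. PRLR itself had a log2 ratio of -0.05 ± 0.17 by the authors' deposited table (p = 0.791, adjusted p = 0.936), and since the mutation alters the coding sequence this level does not check the genotype labels.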

How the data were processed

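Libraries of liver RNA were made with a TruSeq mRNA kit (18 samples) or a SMARTer total RNA kit (16 samples), per the labels' protocols. The submitters' processing notes list edgeR, HISAT2 2.1.0, Subread, featureCounts and the ARS-UCD1.2 build without roles or order. The SMARTer table was made with featureCounts 1.6.2 on Ensembl release 100 models, counting read pairs by strand, per the file headers. How reads of the TruSeq libraries were counted is not stated in any source used here.

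The authors deposited, for SLICK against FREE, 5 values per gene per the file headers, namely the log2 fold change (called log2 ratio here), the average log2 CPM, the F score, and the p-value before and after adjustment. The model terms are not stated. The 70 library columns of 4 tables match no sample label and were not used. The animals named by the comparison differ in part from those of the TruSeq counts. Depth per library, and so the precision it gives, is known only through the authors' F and p. The planned count fits were therefore not run, and the authors' p-values were used. Of 14246 rows, 85 repeat a gene under another symbol, which left 14161 genes. Exon lengths and positions came from the deposited annotation of 27607 genes. Level per kilobase is the average log2 CPM minus log2 of the exon length.

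The implied standard error is the size of the log2 fold change divided by the square root of F. Approximate 95% intervals use the t distribution with the 18.7 denominator degrees of freedom that F and p imply, the same in 500 genes. Formulas were tested on simulated data. The labels do not say whether each sample is a separate animal, so p-values measure the spread between samples. Genes, lists and the naming rule (every member by role, and of each further list the 2 genes with the smallest p) were chosen with earlier results of these data known. Further genes of a list were named where a sentence compares them, after their values were seen. Python 3.11.15, numpy 2.4.6, pandas 2.3.3, scipy 1.17.1 and matplotlib 3.10.9 were used.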

Additional observations from a re-analysis of the deposited data

How the results depend on the processing

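The count of subunits past the adjusted p of 0.05 was 0 by the authors' deposited table, also with the adjustment recomputed over the 14161 genes or over genes at 1 log2 CPM or more. It was 2 at an adjusted p of 0.10 (COX7A1 and ATP5MC1, against 2.77% of all genes) and 20 at an unadjusted p of 0.05 (19 higher and 1 lower, against 7.22% and 8.79%). Centring on all genes adds the same small constant to every gene. Limiting genes to 5 log2 CPM or more changed the makeup of complex IV alone (median 0.11, against 0.14 in full), structural subunits only that of complexes IV and V (0.15 and 0.17), and leaving out near-identical subunit c genes that of complex V (0.17). Elsewhere these limits kept the same genes, so an equal median there says nothing of stability. Means were 0.26, 0.10, 0.11 and 0.16 for complexes II to V. Centring left the count above 0 at 43, since the median of all genes is -0.01. No paired analysis was possible because the library columns carry no replicate number or group. For the same reason the fits from counts, with other tools, without single replicates, without sire, within Lone Ranger daughters, or of S2 against S1, were not run. Whether 1 animal carries a difference was not tested. Processed pseudogenes resemble many of these short transcripts, and how shared reads were counted is not stated.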

Other observations

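The 45 genes lie on 22 chromosomes of ARS-UCD1.2. SDHA is the 1 member on chromosome 20, which also carries PRLR, and lies 32.7 Mb from it (71804557 to 71827899, against 38971752 to 39100563 for PRLR). On chromosome 7, ATP5F1D, UQCR11 and UQCRQ follow each other with gaps of 0.29 and 0.468 Mb. Their log2 ratios by the authors' deposited table were 0.22, 0.12 and 0.15. On chromosome 18, COX6B1 and COX7A1 are 0.419 Mb apart, with log2 ratios of 0.08 ± 0.07 and -0.76 ± 0.21 by the authors' deposited table.

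Exons of 7 members overlap exons of a gene on the opposite strand in the annotation, and 0 overlap on the same strand. Whether the TruSeq counting used strand is not stated, so reads of such pairs may not be told apart. ATP5PF overlaps GABPA, a subunit of a transcription factor that binds many respiratory chain genes. ATP5PF had a log2 ratio of 0.03 ± 0.06 and GABPA of 0.12 ± 0.07 by the authors' deposited table. COX4I1 overlaps EMC8, a subunit of a membrane protein insertase, with log2 ratios of 0.23 ± 0.08 and -0.05 ± 0.08 by the authors' deposited table. ATP5MG overlaps MPZL2, with log2 ratios of 0.21 ± 0.10 and 0.23 ± 0.19 by the authors' deposited table. COX8B, at -2.65 log2 CPM, overlaps the far more abundant PSMD13, at 5.94 log2 CPM. Their log2 ratios by the authors' deposited table were 0.25 ± 0.45 and 0.08 ± 0.06, and the part of PSMD13 reads in the level of COX8B was not tested.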
